A study of Mus musculus with 6 samples.

Results

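The Zfp genes of the mouse are named for zinc finger proteins, and 125 of them were measured here in cells lacking an enhancer cluster and in wild-type cells of the same line. The members were chosen by name and by count: protein-coding genes whose symbol is Zfp followed by digits and whose raw counts summed to 1000 or more over the 6 libraries. Of 365 such protein-coding genes in the annotation, 125 qualified, 236 fell under the count minimum, and 4 (Zfp42, Zfp57, Zfp652 and Zfp703) were left out by name. The files hold 52636 gene identifiers, and all 125 members were among the 15816 genes that passed the filter on low counts. The count sum was added up over both groups together, so it chose members by how much they were counted and not by a difference between the groups. Members just inside the minimum were Zfp90 and Zfp869 with 1006 counts each and Zfp251 with 1037, and the genes just outside were Zfp618 with 995 counts, Zfp763 with 971 and Zfp787 with 955.

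The cells were E14, a mouse embryonic stem cell line that the labels trace to the blastocyst. LIF and 2i, the additives that hold such cells in self-renewal, were withdrawn, and retinoic acid was given at 5 µM (the labels write µm) for 4 days, which the series title ties to the formation of neural progenitor cells. The knockout group (KO, 3 libraries) lacks the enhancer cluster that the title links to HoxB activation, and the wild-type group (WT, 3 libraries) is E14 under the same treatment. Per the design text, the 3 libraries within a group are biological replicates. Where the deletion lies and how many knockout clones were used is not stated by the sources used here, and no count in the files checks the deletion directly.

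Most of these proteins bind DNA through C2H2 zinc fingers, small folds built on a pair of cysteines and a pair of histidines, which stand in tandem arrays and read DNA bases in turn. A large branch also carries a KRAB domain near the protein's start. That domain recruits TRIM28 (also called KAP1), which brings SETDB1, a histone H3 lysine 9 methyltransferase, and HP1 proteins, so that the bound site is silenced. In the mouse the targets of KRAB zinc finger proteins are largely retrotransposons, and some protect imprinted regions. Genes of this branch arose by tandem duplication and sit in clusters. Zfp genes without a KRAB domain are a mixed company that includes activators, corepressors, RNA-binding proteins and ubiquitin ligases.

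Reads assigned to genes numbered 7780368, 7965682 and 8521902 in the KO libraries and 8523464, 9472916 and 8208615 in the WT libraries. Reads aligned to more than 1 place, which the counts leave out and which matter for duplicated genes, made up 14.4 to 15.0% of the KO libraries and 13.8% of each WT library. KO replicate 1 stood apart from its group: the chi-square per degree of freedom across genes was 5.54 and 6.60 against KO replicates 2 and 3, while those 2 differed by 2.34 and WT pairs by 1.88 to 2.01. Pluripotent cell markers were detected in both groups, at a summed 932 to 968 CPM in KO and 1197 to 1234 CPM in WT. That list went both ways: 6 of its 10 genes were lower, while Tfcp2l1 (log2 fold change 0.74), Klf4 (0.28) and Pou5f1 (0.12) were higher and Dppa5a did not pass. Of 12 neural progenitor markers, which summed to 196 to 204 CPM in KO and 531 to 543 CPM in WT, 5 were lower, Pax6 (log2 fold change 1.16) and Msi1 (0.34) were higher, and 3 did not pass. Most of that sum's difference lay in Nes (33.6 ± 3.49 CPM in KO and 231 ± 6.84 CPM in WT, log2 fold change -2.78), Cdh2 (49.6 ± 1.68 CPM in KO and 143 ± 10.03 CPM in WT, log2 fold change -1.52) and Sox2 (26.7 ± 1.71 CPM in KO and 74.9 ± 2.63 CPM in WT, log2 fold change -1.49). Sox2 is on the pluripotent list too and counts among the lower genes of both, so these lists are not separate. Fabp7 had 0 counts in all libraries, and neither it nor Hes5 was tested. Markers of 2 other cell types moved with the groups. Endoderm markers summed to 12704 to 13036 CPM in KO and 4560 to 4605 CPM in WT, with 10 of 12 higher. Sox17 was lower (log2 fold change -0.65) and Foxa2 did not pass (0.029). The largest parts of the endoderm sum were Col4a1 (mean 4920 CPM in KO and 1902 CPM in WT), Lamb1 (2900 and 875 CPM) and Lama1 (2811 and 933 CPM). Fibroblast and mesenchyme markers summed to 1454 to 1482 CPM in KO and 5201 to 5259 CPM in WT, with 8 of 10 lower. Col1a2 was higher (log2 fold change 1.24) and Postn did not pass (0.43). The largest parts of that sum in WT were Fn1 (mean 880 CPM in KO and 1680 CPM in WT), Tagln (124 and 1038 CPM), Acta2 (81.0 and 1016 CPM) and Vim (172 and 994 CPM). Exons of other genes overlap 67.9% of the exon length of Tagln. The part of these markers' cell types in the results below was not tested, and in bulk RNA fewer cells of a type and less RNA per cell cannot be told apart.

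Of the 125 Zfp members, 42 were higher and 59 lower in KO cells than in WT cells, and 24 did not pass the test. A gene was called at an adjusted p under 0.05, from the quasi-likelihood test of edgeR with Benjamini-Hochberg adjustment over all 15816 genes. The background of such calls was high: 68.6% of all tested genes were called, 34.5% higher and 34.0% lower. Among the 8513 tested genes that met the same count minimum, 78.2% were called, 36.6% higher and 41.5% lower, beside 33.6% and 47.2% of the members. The members' share called, 80.8%, therefore lay near that of equally well-counted genes. In 101 members the 3 KO values did not overlap the 3 WT values, 42 above and 59 below, which happened in 70.9% of all tested genes and in 79.8% of those over the count minimum. The median log2 fold change (KO over WT) of the members was -0.12, beside -0.041 for genes over the count minimum and 0.0091 for all tested genes.

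The changes were of moderate size. Log2 fold changes of members ran from -1.40 to 1.61, the quartiles lay at -0.59 and 0.35, and 12 members moved at least 2-fold in either direction. Summed over members, CPM (counts scaled to library size after TMM scaling) came to 7210, 7221 and 7285 in KO libraries and to 7733, 7680 and 7791 in WT libraries. The family's transcripts thus took up a smaller share of the counts in each KO library than in any WT library, at a mean of 7239 ± 40.6 against 7735 ± 55.3 CPM (SD, n = 3 each).

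**Figure D1:**
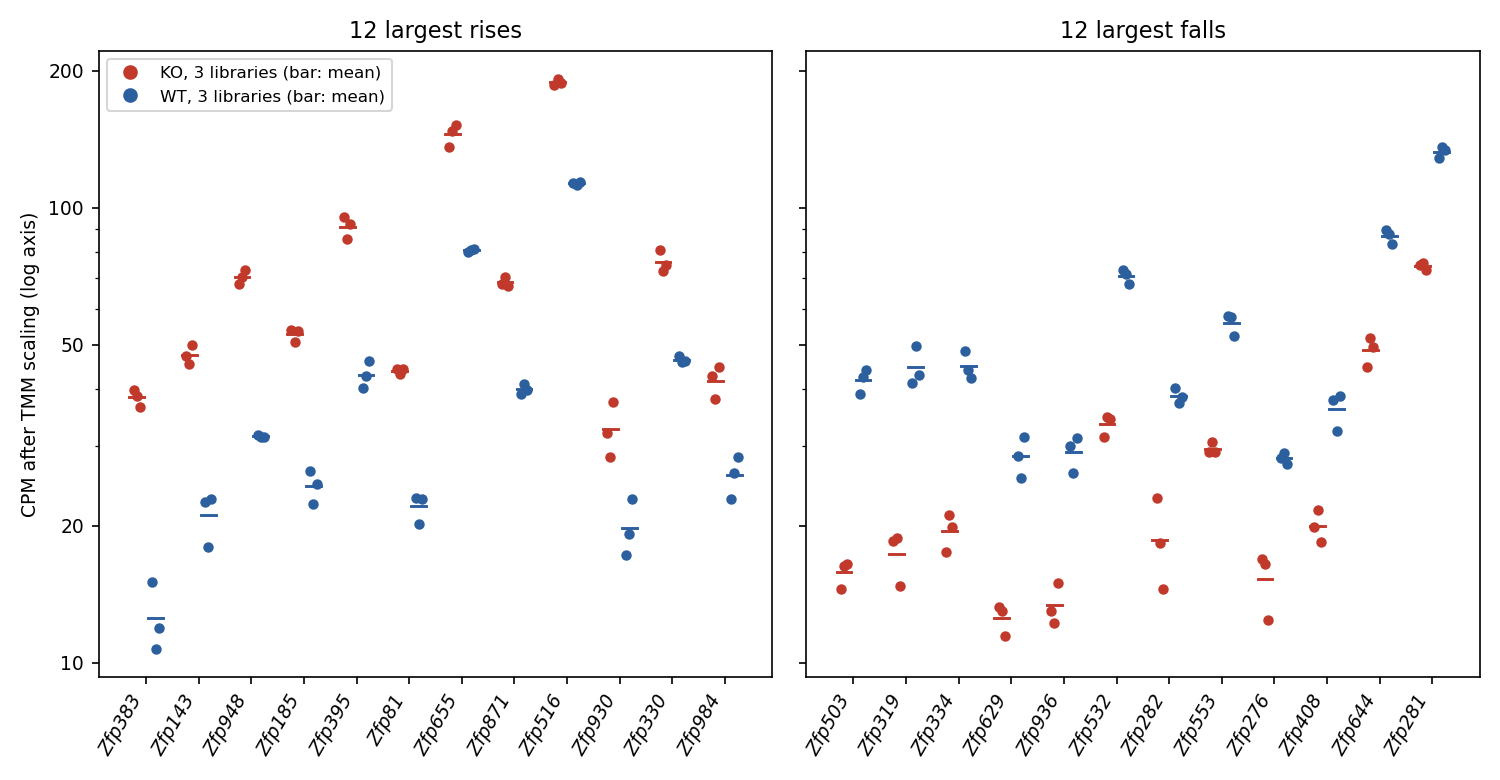
Level of the 12 members with the largest rises and the 12 with the largest falls among called members whose groups do not overlap; the vertical axis is CPM after TMM scaling on a log axis, each point is 1 library, KO left of WT, and bars are means of 3. Zfp383 shows the widest gap among the rises, with KO libraries at 36.5 to 39.8 CPM and WT libraries at 10.7 to 15.0 CPM.

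The counts of higher and lower members are given next by whether the protein holds a KRAB pattern. A pattern of 15 conserved KRAB residues, written for this purpose and not a full domain model, was searched in the annotated proteins, and 45 members matched at least 11 of them, 79 matched fewer than 7, and Zfp746 matched a number in between. Degenerate KRAB domains can be missed, so the members without the pattern may include genes that carry one. Of the 45 with the pattern, 20 were higher in KO, 15 lower and 10 not called, with a median log2 fold change of 0.077. Of the 79 without it, 22 were higher, 43 lower and 14 not called, with a median of -0.21. The split was drawn after the values were seen, and the difference between the branches was not tested. Among Zfp genes under the count minimum, 145 tested genes with the pattern had 36 higher (24.8%) and 39 lower (26.9%) and a median of 0.0051. The 53 without it had 8 higher (15.1%) and 29 lower (54.7%) and a median of -0.65. Of all tested genes, 34.5% were higher and 34.0% lower, and no share was drawn for equally low-counted genes. These Zfp genes come from the same 6 libraries and the same fit, so they are no independent check of the split.

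**Figure D2:**
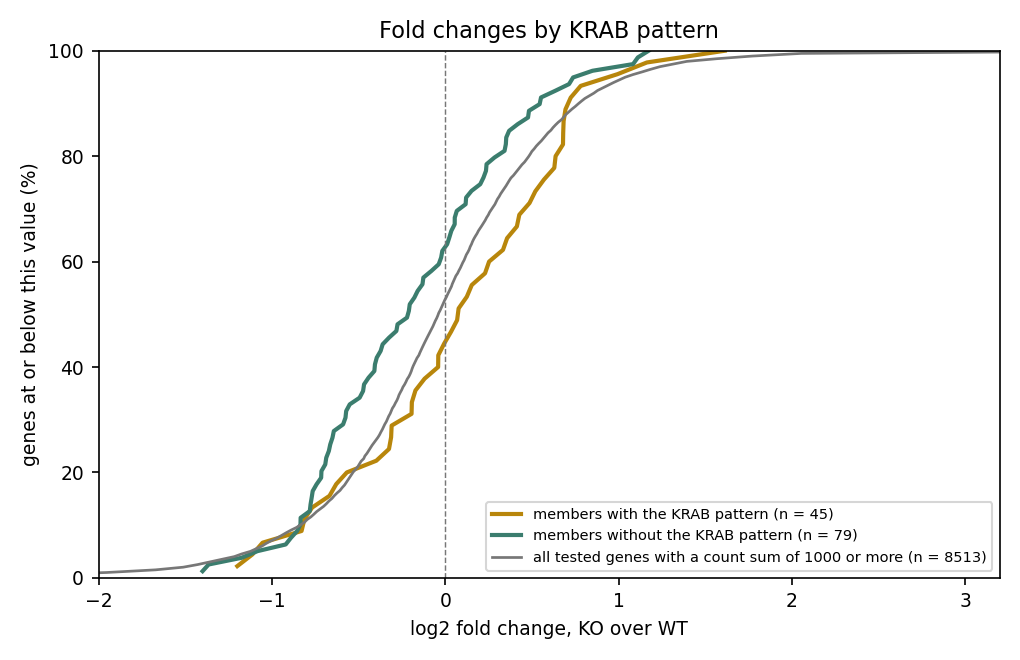
Cumulative share of genes (vertical axis, %) at or below each log2 fold change, KO over WT (horizontal axis), for the 45 members with the KRAB pattern, the 79 without it and the 8513 tested genes with a count sum of 1000 or more. The curve of members without the pattern lies left of that of all well-counted genes over most of its course, with a median of -0.21, and the curve of KRAB members lies right of it over the middle of its course, with a median of 0.077.

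Other features of the genes bore little relation to the change. Across 121 members with at least 1 C2H2 finger found in the protein, the number of fingers, at most 36, had a Spearman correlation with the log2 fold change of -0.072. Over all 125 members the correlation was 0.0092 with the count sum and -0.071 with exon length. These are descriptions across genes of the same libraries, and genes are not independent replicates. No C2H2 finger of the searched spacing was found in Zfp185, Zfp330, Zfp503 and Zfp839.

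Where the genes lie was described next. Zfp genes with gaps of at most 500 kb were chained along each chromosome, and 12 chains held 3 or more members, 42 in all. They are lettered A to L from chromosome 4 onward, and the other 83 members are called isolated. The clustered members had 15 higher and 18 lower with a median log2 fold change of -0.080, and the isolated ones 27 higher and 41 lower with a median of -0.13. Within clusters, 30 KRAB members had 14 higher and 9 lower, and 11 members without the pattern had 1 higher and 8 lower. Called members of both directions stood in 7 of the 12 clusters, while 2 held only higher ones and 3 only lower ones. Clustered members were 35.7% higher and 42.9% lower, isolated ones 32.5% and 49.4%, and all members 33.6% and 47.2%. No sets of members from unlinked places were drawn for comparison, so these counts do not set neighbours apart from unrelated members.

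**Figure D3:**
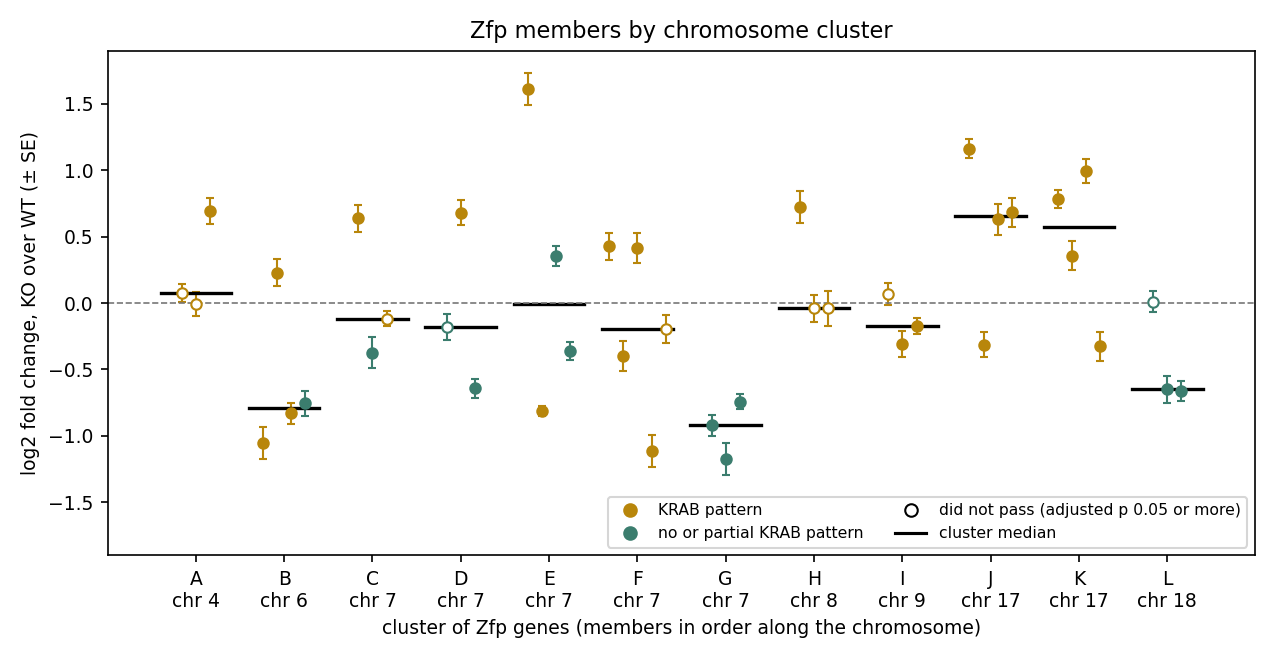
Log2 fold change, KO over WT, with its SE (vertical axis) of the 42 members in the 12 clusters A to L (horizontal axis, with the chromosome), in order along the chromosome, coloured by KRAB pattern; open points did not pass the test and bars are cluster medians. Clusters J and K have medians of 0.66 and 0.57, and cluster G has a median of -0.92 with 3 of 3 members lower.

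The widest gap between neighbours was in cluster E on chromosome 7, which holds 4 members within 262 kb. Zfp383, a KRAB gene at chr7:29908223-29916813, had 39.8, 38.7 and 36.5 CPM in KO libraries and 15.02, 10.7 and 11.9 CPM in WT libraries. Every KO value lay far above every WT value, and the log2 fold change of 1.61 (SE 0.12, adjusted p = 4.68e-12) was the highest of the 125. Zfp568, a KRAB protein that in mouse embryos silences a placental transcript of Igf2, had 212, 207 and 201 CPM in KO libraries and 363, 355 and 370.1 CPM in WT libraries. It fell in all 3 KO libraries below every WT library, with a log2 fold change of -0.81 (SE 0.041, adjusted p = 2.33e-15). Per kb of exon Zfp568 was the top member in WT cells at 49.3 CPM per kb, while in KO cells it ranked 5 at 28.1. Of the pair without the KRAB pattern, Zfp260 rose (69.1 ± 8.55 CPM in KO and 54.3 ± 0.587 CPM in WT, log2 fold change 0.35) and Zfp146 fell (47.03 ± 0.763 CPM in KO and 60.5 ± 3.05 CPM in WT, log2 fold change -0.36). Summed over the 4 genes, the cluster stood at 361 ± 2.89 CPM in KO and 490.0 ± 11.5 CPM in WT, although its median log2 fold change was -0.0046.

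Clusters J and K on chromosome 17 were the ones with most members higher. Cluster J starts at 21.6 Mb, and its 4 members are all KRAB genes. Zfp948 had 68.2, 70.5 and 72.97 CPM in KO libraries and 31.7, 31.4 and 31.4 CPM in WT libraries, a log2 fold change of 1.16 (SE 0.072, adjusted p = 1.62e-13). The WT values lay within 1 CPM of each other and all KO values lay above them. Zfp945 (32.9 ± 1.91 CPM in KO and 20.5 ± 3.05 CPM in WT, log2 fold change 0.68) and Zfp942 (27.6 ± 1.64 CPM in KO and 17.8 ± 2.29 CPM in WT, log2 fold change 0.63) rose as well, while Zfp229 fell (33.4 ± 3.52 CPM in KO and 41.5 ± 2.77 CPM in WT, log2 fold change -0.31). The 4 members summed to 164 ± 5.98 CPM in KO and 111 ± 2.1 CPM in WT. Of 10 other tested Zfp genes in the same stretch, all under the count minimum, 3 were higher and 1 lower.

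Cluster K starts at 32.8 Mb of the same chromosome and again holds 4 KRAB members, 3 of them higher in KO. Zfp81 had 44.3, 43.2 and 44.2 CPM in KO libraries and 23.1, 20.2 and 22.9 CPM in WT libraries, with a log2 fold change of 0.99 (SE 0.092, adjusted p = 4.54e-10). Zfp871 had 68.2, 70.6 and 67.2 CPM in KO libraries and 38.9, 41.1 and 39.8 CPM in WT libraries, with a log2 fold change of 0.78 (SE 0.069, adjusted p = 1.71e-10). Neither gene had a KO library below a WT library. Zfp799 rose by less (27.7 ± 1.21 CPM in KO and 21.6 ± 2.29 CPM in WT, log2 fold change 0.36), and Zfp101, at the far end, fell (19.3 ± 0.867 CPM in KO and 24.1 ± 0.851 CPM in WT, log2 fold change -0.32). The sum over the 4 was 159 ± 1.31 CPM in KO and 108 ± 1.79 CPM in WT. Of 6 other tested Zfp genes there, 4 were higher and 0 lower, while of 6 tested genes of other kinds between them 1 was higher and 0 lower.

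The promoters of the 4 cluster K members are shown because they are neighbours of 1 tandem array that did not all move one way. Each is the 250 bases before the annotated gene start in RefSeq on GRCm38.p6, read 5′ to 3′ on the gene's own strand, the minus strand for all 4, in the order in which the genes lie. Zfp871 is at chr17:32788288-32788537, Zfp799 at chr17:32830262-32830511, Zfp81 at chr17:33358879-33359128 and Zfp101 at chr17:33394638-33394887. Capitals mark matches on either strand to CCAAT (the CCAAT box, bound by the NF-Y factor), GGGCGG (the GC box) and TATAAA (the TATA box).
Zfp871: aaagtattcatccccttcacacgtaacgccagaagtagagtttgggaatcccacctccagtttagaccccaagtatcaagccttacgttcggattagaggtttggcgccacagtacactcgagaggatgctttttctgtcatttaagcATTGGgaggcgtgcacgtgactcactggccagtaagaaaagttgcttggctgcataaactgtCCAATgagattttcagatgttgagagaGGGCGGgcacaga
Zfp799: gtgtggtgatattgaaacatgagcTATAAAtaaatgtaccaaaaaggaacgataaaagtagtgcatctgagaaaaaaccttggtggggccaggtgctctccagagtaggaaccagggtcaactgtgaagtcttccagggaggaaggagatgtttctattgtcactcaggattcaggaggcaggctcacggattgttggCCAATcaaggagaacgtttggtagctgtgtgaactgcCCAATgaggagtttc
Zfp81: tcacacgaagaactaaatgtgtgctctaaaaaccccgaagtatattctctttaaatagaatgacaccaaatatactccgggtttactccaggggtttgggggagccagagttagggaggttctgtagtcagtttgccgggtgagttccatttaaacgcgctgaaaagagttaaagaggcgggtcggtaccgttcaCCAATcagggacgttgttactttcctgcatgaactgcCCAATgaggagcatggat
Zfp101: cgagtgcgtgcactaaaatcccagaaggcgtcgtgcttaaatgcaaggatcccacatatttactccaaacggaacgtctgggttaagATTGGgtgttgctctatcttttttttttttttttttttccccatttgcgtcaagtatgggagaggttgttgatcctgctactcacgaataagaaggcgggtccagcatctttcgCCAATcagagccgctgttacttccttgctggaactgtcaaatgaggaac
All 4 hold a CCAAT box, the falling Zfp101 included. Zfp799 and Zfp81 share an identical run of 19 bases around one of theirs, tgaactgcccaatgaggag, although Zfp81 had the larger log2 fold change (0.99 against 0.36). No longer run was shared by any pair of the 4.

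Cluster F on chromosome 7, which starts at 42.5 Mb, held close relatives that went apart. Its 5 members all have the KRAB pattern, and Zfp936, Zfp976 and Zfp975 also resemble each other in their promoters. Zfp936 had 13.01, 12.2 and 14.99 CPM in KO libraries and 30.04, 26.2 and 31.2 CPM in WT libraries, a log2 fold change of -1.11 (SE 0.12, adjusted p = 8.25e-09). Zfp976 had 20.2, 20.3 and 21.9 CPM in KO libraries and 23.8, 31.1 and 27.4 CPM in WT libraries, a log2 fold change of -0.40 (SE 0.11, adjusted p = 0.00331). Zfp975 had 24.3, 28.7 and 32.1 CPM in KO libraries and 23.3, 20.5 and 20.2 CPM in WT libraries, a log2 fold change of 0.41 (SE 0.11, adjusted p = 0.00252). Thus the KO values lay below the WT values in Zfp936 and Zfp976 and above them in Zfp975. Of their exon sequence, 7.35% in Zfp936, 10.5% in Zfp976 and 17.1% in Zfp975 recurs in 75-base stretches of other genes' transcripts, and a read lying wholly within such a stretch could not be assigned to 1 gene.

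The same 250 bases are given for these 3 genes, in map order, with capitals marking every stretch of 20 or more bases that is identical in at least 1 of the other 2. Zfp976 is at chr7:42642605-42642854 and Zfp975 at chr7:42692719-42692968, both on the minus strand, and Zfp936 is at chr7:43177340-43177589 on the plus strand. In GENCODE, Zfp936 spans chr7:43114229-43192109, so its window lies within that gene and not before its GENCODE start.
Zfp976: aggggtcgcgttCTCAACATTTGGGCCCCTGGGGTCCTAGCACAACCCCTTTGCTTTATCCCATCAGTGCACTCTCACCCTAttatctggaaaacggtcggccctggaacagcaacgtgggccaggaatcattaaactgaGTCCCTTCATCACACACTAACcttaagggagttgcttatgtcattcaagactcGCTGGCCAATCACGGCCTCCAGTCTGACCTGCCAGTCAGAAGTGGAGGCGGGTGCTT
Zfp975: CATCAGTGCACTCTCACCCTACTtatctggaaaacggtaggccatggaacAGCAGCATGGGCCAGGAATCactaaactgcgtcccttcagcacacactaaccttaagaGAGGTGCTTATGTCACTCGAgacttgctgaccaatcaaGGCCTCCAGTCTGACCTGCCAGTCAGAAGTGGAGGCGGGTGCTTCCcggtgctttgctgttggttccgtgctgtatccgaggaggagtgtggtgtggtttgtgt
Zfp936: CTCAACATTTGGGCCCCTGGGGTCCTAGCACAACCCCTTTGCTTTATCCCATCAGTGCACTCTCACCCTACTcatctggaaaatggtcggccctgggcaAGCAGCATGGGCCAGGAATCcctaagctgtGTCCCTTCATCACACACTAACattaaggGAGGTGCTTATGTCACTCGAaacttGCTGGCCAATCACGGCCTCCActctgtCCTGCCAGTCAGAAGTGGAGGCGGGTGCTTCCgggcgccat
Shared stretches cover 59.2% of the window in Zfp976, 43.6% in Zfp975 and 74.4% in Zfp936. The longest run joins the 2 falling genes, Zfp976 and Zfp936, over 70 bases. The rising Zfp975 shares a run of 44 bases with Zfp976 and one of 32 bases with Zfp936. Of the remaining members of the cluster, Zfp141 rose (36.01 ± 4.62 CPM in KO and 26.8 ± 2.16 CPM in WT, log2 fold change 0.43) and Zfp715 did not pass (28.7 ± 4.62 CPM in KO and 32.9 ± 1.72 CPM in WT, log2 fold change -0.19, adjusted p = 0.108).

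Cluster G, at 127.2 Mb of chromosome 7, was the one of the 12 in which all members fell, and its 3 members lack the KRAB pattern. Zfp629 had 13.3, 12.98 and 11.5 CPM in KO libraries and 28.5, 25.5 and 31.3 CPM in WT libraries, a log2 fold change of -1.18 (SE 0.12, adjusted p = 3.65e-09). Zfp553 had 29.1, 30.6 and 29.05 CPM in KO libraries and 57.9, 57.5 and 52.4 CPM in WT libraries, a log2 fold change of -0.92 (SE 0.08, adjusted p = 1.45e-10). In both genes every KO library lay well below every WT library. Zfp646, with 27 C2H2 fingers in its protein, fell too (58.1 ± 1.07 CPM in KO and 97.3 ± 5.41 CPM in WT, log2 fold change -0.74). Together they summed to 100.3 ± 2.45 CPM in KO and 182 ± 7.0 CPM in WT. Of 7 other tested Zfp genes in the stretch, 6 were lower and 1 higher. Of 25 tested genes of other kinds there, 11 were lower and 4 higher, with a median log2 fold change of -0.12.

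The promoter of Zfp553, at chr7:127232811-127233060 on the plus strand, is shown as one of the 2 promoters of cluster G in the table. Capitals again mark GC boxes, CCAAT boxes and TATA boxes, and the window is the same 250 bases.
Zfp553: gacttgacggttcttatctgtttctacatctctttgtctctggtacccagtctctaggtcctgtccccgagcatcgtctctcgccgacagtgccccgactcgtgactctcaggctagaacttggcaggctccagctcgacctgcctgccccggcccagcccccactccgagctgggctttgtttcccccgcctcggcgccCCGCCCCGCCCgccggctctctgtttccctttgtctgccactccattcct
It holds a run of overlapping GC boxes, no CCAAT box and no TATA box, and the 300-base window around the start has 23 CpG dinucleotides, against 6 to 13 in the 4 genes of cluster K. The cluster's other promoter in the table, that of Zfp629, which fell further, differs from it: none of these motifs was found there, and its window has 8 CpG dinucleotides, within the range of cluster K.

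The same motifs were counted over the family. Promoters of 97 of the 125 members were found in the RefSeq table, and motifs were counted on either strand over 300 bases, 250 before and 50 after the start. A CCAAT box stood in 63.2% of 38 KRAB member promoters and in 39.7% of 58 without the pattern, beside 37.9% of all 27025 promoters. A GC box stood in 44.7% of KRAB member promoters and in 67.2% of the others, beside 35.9% of all promoters. A TATA box was rarer in members, at 5.15%, than in all promoters, at 14.2%. The median number of CpG dinucleotides was 12.5 in KRAB members and 20 in the others, beside 7 over all promoters. The letters CCGGAAGT, a binding motif of ETS factors, were in 12.4% of member promoters and 4.00% of all. They were found in 8 of 36 promoters of members higher in KO and in 2 of 41 of members lower in KO. The motif that ZFP143 itself binds, searched as ACTACAANT, was in 3 of the 36 and 0 of the 41, beside 1.64% of all promoters. The other 6 motifs did not all lean that way. TGACGTCA, the cyclic AMP response element, was in 0 of the 36 and 3 of the 41, and GCGCATGCG, part of the NRF1 site, in 3 of each. AAGATGGCG, part of the YY1 site, was in 2 of the 36 and 1 of the 41, and the TATA box in 2 of each. The GC box was in 23 of the 36 and 25 of the 41, and the CCAAT box in 20 of the 36 and 15 of the 41. Such matches describe the letters of these windows and were not tested against the direction of change. The 27025 promoters outnumber the 15816 genes tested, so they were not limited to genes well counted here. The contrasts with all promoters therefore do not set the members apart from other well-counted genes.

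Cluster B at 47.9 Mb of chromosome 6 had 3 members lower and 1 higher. Zfp282, a KRAB gene, had 23.1, 18.3 and 14.5 CPM in KO libraries and 40.1, 37.2 and 38.4 CPM in WT libraries, a log2 fold change of -1.05 (SE 0.12, adjusted p = 1.79e-08). Its KO libraries spread more widely than the WT ones and still lay below all of them. Zfp777 fell (31.4 ± 1.41 CPM in KO and 55.8 ± 2.07 CPM in WT, log2 fold change -0.83), and so did Zfp746 (24.9 ± 2.38 CPM in KO and 41.9 ± 1.91 CPM in WT, log2 fold change -0.76), known as PARIS, a repressor of the gene for PGC-1alpha in neurons. Zfp212, between them, rose only slightly (33.9 ± 3.78 CPM in KO and 28.9 ± 2.66 CPM in WT, log2 fold change 0.23, adjusted p = 0.0478), and its groups overlap. This call was lost without WT replicate 1 or 3 or KO replicate 2 (log2 fold changes of 0.19, 0.18 and 0.14) and also under DESeq2, RLE scaling and with no filter on low counts. The cluster summed to 109 ± 8.58 CPM in KO and 165 ± 1.61 CPM in WT.

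Less counted Zfp genes did not always go with the members of their cluster. The 1 tested in cluster B was higher, beside 3 lower members, and of 12 in cluster A 0 were higher and 2 lower, beside 1 higher member. Of 9 in cluster D 2 were higher and 3 lower, of 5 in cluster E 1 was higher and 2 lower, the 1 in cluster F was lower, and the 1 in cluster H did not pass. Clusters C, I and L had 0 such genes tested.

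The remaining clusters were mixed or changed little. In cluster A on chromosome 4, Zfp984 rose (41.7 ± 3.44 CPM in KO and 25.8 ± 2.72 CPM in WT, log2 fold change 0.69), but 40.9% of its exon sequence recurs in other transcripts, so its count is uncertain, and Zfp990 and Zfp979 did not pass. In cluster C, Zfp606 rose (32.3 ± 2.35 CPM in KO and 20.8 ± 1.67 CPM in WT, log2 fold change 0.64) and Zfp329 fell (19.03 ± 1.26 CPM in KO and 24.7 ± 2.22 CPM in WT, log2 fold change -0.37), while Zfp110, also called NRIF and known as a partner of the neurotrophin receptor p75, did not pass (log2 fold change -0.12, adjusted p = 0.0661), but was called lower without WT replicate 2, at -0.17. In cluster D, Zfp61 rose (38.3 ± 0.423 CPM in KO and 23.9 ± 2.0 CPM in WT, log2 fold change 0.68), Zfp574 fell (37.8 ± 1.37 CPM in KO and 58.9 ± 2.2 CPM in WT, log2 fold change -0.64) and Zfp180 did not pass. Zfp930 of cluster H on chromosome 8 rose (32.6 ± 4.54 CPM in KO and 19.8 ± 2.89 CPM in WT, log2 fold change 0.72), whereas Zfp868 and Zfp869 had log2 fold changes of -0.041 and -0.04 and did not pass. In cluster I on chromosome 9, Zfp426 (25.2 ± 1.17 CPM in KO and 31.2 ± 1.91 CPM in WT, log2 fold change -0.31) and Zfp266 (75.1 ± 2.75 CPM in KO and 84.5 ± 5.08 CPM in WT, log2 fold change -0.17) fell, and Zfp26 did not pass. The call of Zfp266 was lost without WT replicate 1 or KO replicate 2, at a log2 fold change of -0.14 in either. Cluster L on chromosome 18 has no KRAB member: Zfp35 (19.7 ± 0.847 CPM in KO and 30.9 ± 1.82 CPM in WT, log2 fold change -0.65) and Zfp24 (36.7 ± 2.07 CPM in KO and 58.3 ± 3.31 CPM in WT, log2 fold change -0.66), the last needed for myelination in mice, fell, and Zfp397 had a log2 fold change of 0.011 and did not pass.

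Members lie on 19 chromosomes, and most of those named here were picked after their values were seen. Among all tested genes over the count minimum, 36.6% were higher and 41.5% lower, and the difference from that background was not tested. On chromosome 17, 6 of 11 members were higher and 3 lower, with a median log2 fold change of 0.36, and these include all members of clusters J and K. On chromosome 15, 6 of 7 members were lower and 1 higher, with a median of -0.67. On chromosome 6, 6 of 8 were lower and 1 higher, with a median of -0.62. Chromosome 7, which has the most members, had 9 higher and 13 lower of 27 and a median of -0.19. Both members on the X chromosome and 0 of the 3 on chromosome 1 were higher.

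Among the 31 members listed for a described role, in clusters or not, 5 were higher and 17 lower and 9 did not pass, with a median log2 fold change of -0.22. These are 16.1% higher and 54.8% lower, with 71.0% called, beside 36.6% higher, 41.5% lower and 78.2% called among all genes over the count minimum. The list was chosen with earlier results known, and its difference from that background was not tested. A pair of members tied to the pluripotent state fell. They were put together after their values were seen, so their shared direction carries no weight. They may not be all the members with such roles. Zfp281, a factor that binds the Nanog gene and restrains it in embryonic stem cells, had 74.7, 75.6 and 73.2 CPM in KO libraries and 129, 136 and 134 CPM in WT libraries, a log2 fold change of -0.83 (SE 0.047, adjusted p = 2.61e-14). Zfp706, which has a part in the exit of mouse stem cells from self-renewal, had 124, 135 and 125 CPM in KO libraries and 207, 213 and 209.8 CPM in WT libraries, a log2 fold change of -0.71 (SE 0.046, adjusted p = 3.35e-13). In both genes every KO library lay well below the lowest WT library. Per kb of exon Zfp706 stood second among members in WT cells at 42.1 CPM per kb and ranked 8 in KO cells at 25.7. The pluripotency markers went both ways, 6 of 10 lower and 3 higher, with a lower sum in KO, and their part in these falls was not tested.

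**Figure D4:**
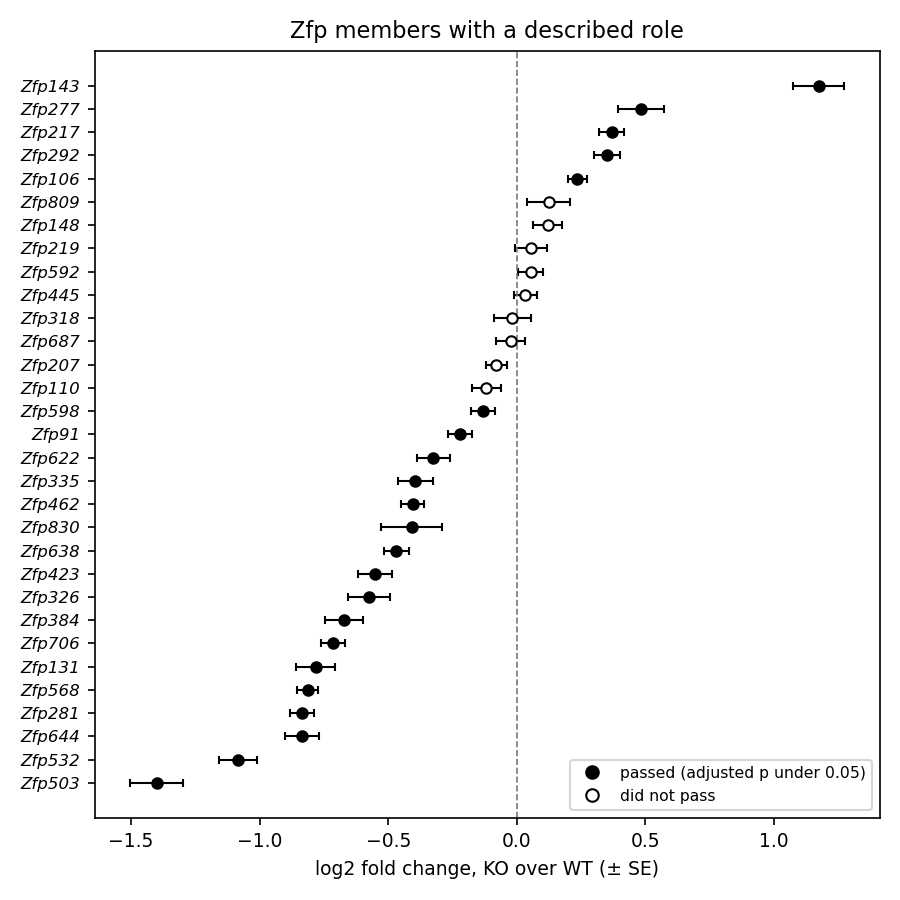
Log2 fold change, KO over WT, with its SE (horizontal axis) of the 31 members with a described role (vertical axis, sorted); filled points passed the test at an adjusted p under 0.05. Zfp143 stands at 1.17 at the top and Zfp503 at -1.40 at the bottom, and 17 of the 31 were lower.

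A pair of members that work with the H3 lysine 9 methyltransferases G9a and GLP, encoded by Ehmt2 and Ehmt1, fell as well. This pair too was put together after its values were seen, so its shared direction carries no weight. Zfp462, which in mouse stem cells helps these enzymes to repress endoderm genes, had 146, 146 and 143 CPM in KO libraries and 189, 189 and 199 CPM in WT libraries. The KO values were close to each other and below all WT values, with a log2 fold change of -0.41 (SE 0.044, adjusted p = 7.18e-09). Of the 12 endoderm markers given above, 10 were higher in KO, Sox17 was lower and Foxa2 did not pass. Whether this bears on Zfp462 was not tested. Zfp644, whose human counterpart binds G9a and GLP, had 44.7, 51.7 and 49.5 CPM in KO libraries and 89.5, 87.6 and 83.3 CPM in WT libraries, a log2 fold change of -0.84 (SE 0.065, adjusted p = 1.55e-11). Ehmt2 itself rose (251 ± 8.97 CPM in KO and 144 ± 3.33 CPM in WT, log2 fold change 0.80) and Ehmt1 did not pass (log2 fold change 0.049, adjusted p = 0.338).

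Zfp532, Zfp592 and Zfp687, whose human counterparts form the Z3 module with the chromatin reader ZMYND8, did not move together. Zfp532 had 31.4, 34.7 and 34.3 CPM in KO libraries and 73.2, 71.7 and 68.1 CPM in WT libraries, a log2 fold change of -1.08 (SE 0.073, adjusted p = 8.89e-13). A further limit is that 28.7% of its exon length overlaps exons of other genes. Zfp592 and Zfp687 did not pass, with log2 fold changes of 0.055 and -0.024 and with overlapping groups.

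The 3 members described next have known roles in the nervous system or its progenitors. They were put together after their values were seen, so their shared direction carries no weight, and they are not all the members with such roles. Among those given above, Zfp746 of cluster B and Zfp24 of cluster L fell, and Zfp110 of cluster C did not pass. Zfp503, also called Nolz1 and needed in the developing striatum, had 14.6, 16.3 and 16.5 CPM in KO libraries and 38.9, 42.4 and 44.1 CPM in WT libraries. Every KO value lay far below every WT value, and the log2 fold change of -1.40 (SE 0.10, adjusted p = 4.56e-12) was the lowest of the 125. Zfp423, a partner of EBF factors with roles in the cerebellum and in fat cells, fell (50.04 ± 3.8 CPM in KO and 73.4 ± 2.02 CPM in WT, log2 fold change -0.55). Zfp335, a part of an H3 lysine 4 methyltransferase complex that neural progenitors need, fell too (51.4 ± 3.27 CPM in KO and 67.6 ± 2.17 CPM in WT, log2 fold change -0.40). Of the 12 neural progenitor markers, 5 were lower and 2 higher in KO, with a sum of 196 to 204 CPM in KO against 531 to 543 CPM in WT, and their part was not tested.

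The largest rise among the members with a described role was that of Zfp143, a factor that binds promoters and sites where chromatin loops are anchored. It had 47.3, 45.4 and 50.01 CPM in KO libraries and 22.6, 17.97 and 22.9 CPM in WT libraries, a log2 fold change of 1.17 (SE 0.10, adjusted p = 6.74e-11). All KO values lay far above all WT values. Zfp217, whose human counterpart works with the corepressors CtBP and LSD1, rose (130.1 ± 4.67 CPM in KO and 101 ± 3.23 CPM in WT, log2 fold change 0.37), as did Zfp277, which works with the Polycomb protein BMI1 (44.8 ± 3.51 CPM in KO and 32.1 ± 2.96 CPM in WT, log2 fold change 0.48), and Zfp292 (119.9 ± 2.16 CPM in KO and 94.1 ± 5.76 CPM in WT, log2 fold change 0.35). Zfp106, an RNA-binding protein and the member with the highest count sum, 21117, rose slightly (455 ± 9.96 CPM in KO and 387 ± 9.38 CPM in WT, log2 fold change 0.24). Exons of other genes overlap 26.1% of its length.

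Members of the role list whose proteins act on RNA, ribosomes or protein turnover are given next. They were grouped after their values were seen, so their shared direction carries no weight, and others with such roles went otherwise: the RNA-binding Zfp106 rose, as did Zfp346, a binder of double-stranded RNA that is not on the list (83.9 ± 3.49 CPM in KO and 62.7 ± 4.35 CPM in WT, log2 fold change 0.42), and Zfp318 did not pass. Zfp638, which binds RNA and in human cells silences retroviral DNA with the HUSH complex, fell (95.8 ± 2.67 CPM in KO and 133 ± 5.57 CPM in WT, log2 fold change -0.47). Zfp326, a part of the human DBIRD complex that couples transcription and splicing, fell (33.3 ± 2.59 CPM in KO and 49.7 ± 0.478 CPM in WT, log2 fold change -0.58), and so did the splicing factor Zfp830 (19.9 ± 2.8 CPM in KO and 26.5 ± 2.6 CPM in WT, log2 fold change -0.41). Zfp622, a ribosome biogenesis factor, fell (71.4 ± 5.74 CPM in KO and 89.6 ± 6.56 CPM in WT, log2 fold change -0.32). Of the ubiquitin ligases, Zfp91 fell (114 ± 0.951 CPM in KO and 133 ± 1.52 CPM in WT, log2 fold change -0.22), and Zfp598, which marks collided ribosomes, was lower by a small margin (115 ± 2.78 CPM in KO and 126 ± 5.25 CPM in WT, log2 fold change -0.13, adjusted p = 0.0173). That call was lost without WT replicate 2 or KO replicate 2 (log2 fold change of -0.11 in either) and under upper-quartile scaling. The transcription factors Zfp384 (46.2 ± 3.27 CPM in KO and 73.5 ± 6.15 CPM in WT, log2 fold change -0.67) and Zfp131 (47.3 ± 6.32 CPM in KO and 81.5 ± 4.31 CPM in WT, log2 fold change -0.78), the second with a BTB domain, fell as well.

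Some well-known members did not pass the test. Zfp809, which silences murine leukaemia viruses by binding their primer binding site, had 46.1, 41.3 and 51.3 CPM in KO libraries and 40.7, 42.3 and 44.4 CPM in WT libraries, which overlap (adjusted p = 0.192). Zfp445, a KRAB protein that protects imprinted regions, had 152, 151 and 157 CPM in KO libraries and 149, 147 and 154 CPM in WT libraries, which overlap too (adjusted p = 0.523). Zfp207, a spindle assembly factor, had a log2 fold change of -0.08 and Zfp148, a GC-box binding factor, one of 0.12, and neither passed. Without KO replicate 2 Zfp809 passed as higher, at 0.20, and without WT replicate 2 so did Zfp148, at 0.16. Zfp219 and Zfp318, the second known for IgD splicing in B cells, had 0.055 and -0.017 and did not pass.

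Isolated members outside that list added several large changes. Zfp395 had 95.5, 85.5 and 91.9 CPM in KO libraries and 40.1, 42.6 and 46.02 CPM in WT libraries, a log2 fold change of 1.08 (SE 0.067, adjusted p = 1.58e-13). Zfp185, an X-linked gene whose protein has a LIM domain and binds actin, had 53.98, 50.8 and 53.5 CPM in KO libraries and 26.4, 22.3 and 24.7 CPM in WT libraries, a log2 fold change of 1.11 (SE 0.087, adjusted p = 1.72e-11). In both the groups were far apart. Zfp655 (145 ± 8.09 CPM in KO and 80.7 ± 0.596 CPM in WT, log2 fold change 0.85), Zfp516 (189 ± 2.71 CPM in KO and 113 ± 0.691 CPM in WT, log2 fold change 0.74), a factor of brown fat, and Zfp330 (76.1 ± 4.25 CPM in KO and 46.4 ± 0.837 CPM in WT, log2 fold change 0.71) rose as well.

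On the falling side, Zfp319 had 18.6, 18.8 and 14.8 CPM in KO libraries and 41.3, 49.8 and 42.8 CPM in WT libraries, a log2 fold change of -1.37 (SE 0.11, adjusted p = 2.37e-11). Zfp334, a KRAB gene on chromosome 2, had 17.5, 21.1 and 19.9 CPM in KO libraries and 48.5, 43.9 and 42.2 CPM in WT libraries, a log2 fold change of -1.20 (SE 0.10, adjusted p = 4.70e-11). It was the lowest of the 15 isolated KRAB members, of which 6 were higher and 6 lower. Zfp276 (15.3 ± 2.47 CPM in KO and 28.2 ± 0.786 CPM in WT, log2 fold change -0.89) and Zfp408, whose human counterpart is linked to retinal disease (19.98 ± 1.67 CPM in KO and 36.2 ± 3.37 CPM in WT, log2 fold change -0.86), fell too. Of the 45 members not named by these lists or clusters, 17 were higher, 21 lower and 7 not called, with log2 fold changes from -0.78 to 0.68.

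The partners through which KRAB proteins silence DNA went both ways. Of 29 genes of that list, 15 were lower (51.7%), 5 higher (17.2%) and 9 not called, with a median log2 fold change of -0.27. Among all tested genes over the count minimum, 41.5% were lower and 36.6% higher, with a median of -0.041, and 78.2% were called, beside 69.0% of the list. The difference from that background was not tested, and the list was chosen with earlier results known. Trim28, which encodes the adaptor that KRAB domains bind, had 540.2, 564 and 592 CPM in KO libraries and 914, 908 and 939.8 CPM in WT libraries. All KO values lay below all WT values, with a log2 fold change of -0.70 (SE 0.034, adjusted p = 7.62e-16). Setdb1, the methyltransferase it brings, was lower by far less (128 ± 1.3 CPM in KO and 140.1 ± 6.47 CPM in WT, log2 fold change -0.13, adjusted p = 0.0172). Chd3, a remodeller of the NuRD complex, fell furthest (60.8 ± 3.53 CPM in KO and 134 ± 2.63 CPM in WT, log2 fold change -1.14), and Resf1, which works with Setdb1 in silencing retroviruses, fell (106 ± 1.67 CPM in KO and 187 ± 4.66 CPM in WT, log2 fold change -0.82). The maintenance DNA methylation genes Uhrf1 (152 ± 3.11 CPM in KO and 249 ± 6.56 CPM in WT, log2 fold change -0.72) and Dnmt1 (200.0 ± 4.98 CPM in KO and 325 ± 12.8 CPM in WT, log2 fold change -0.70) fell together.

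The 5 higher genes of the list included Atf7ip, the partner that stabilises SETDB1 in the nucleus, which had 112, 113 and 124 CPM in KO libraries and 48.01, 59.03 and 57.2 CPM in WT libraries, a log2 fold change of 1.09 (SE 0.065, adjusted p = 7.37e-14). H3f3b, which encodes the histone variant H3.3, rose (1988 ± 21.7 CPM in KO and 1149.6 ± 16.1 CPM in WT, log2 fold change 0.79), while H3f3a, which encodes the same protein, did not pass (log2 fold change -0.063, adjusted p = 0.112). Atrx and Fam208a, the first a loader of H3.3 and the second a part of the HUSH complex, had log2 fold changes of 0.43 and 0.11 (adjusted p = 0.046 for Fam208a). With any 1 library left out, 4 of the list were called higher, not 5.

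**Figure D5:**
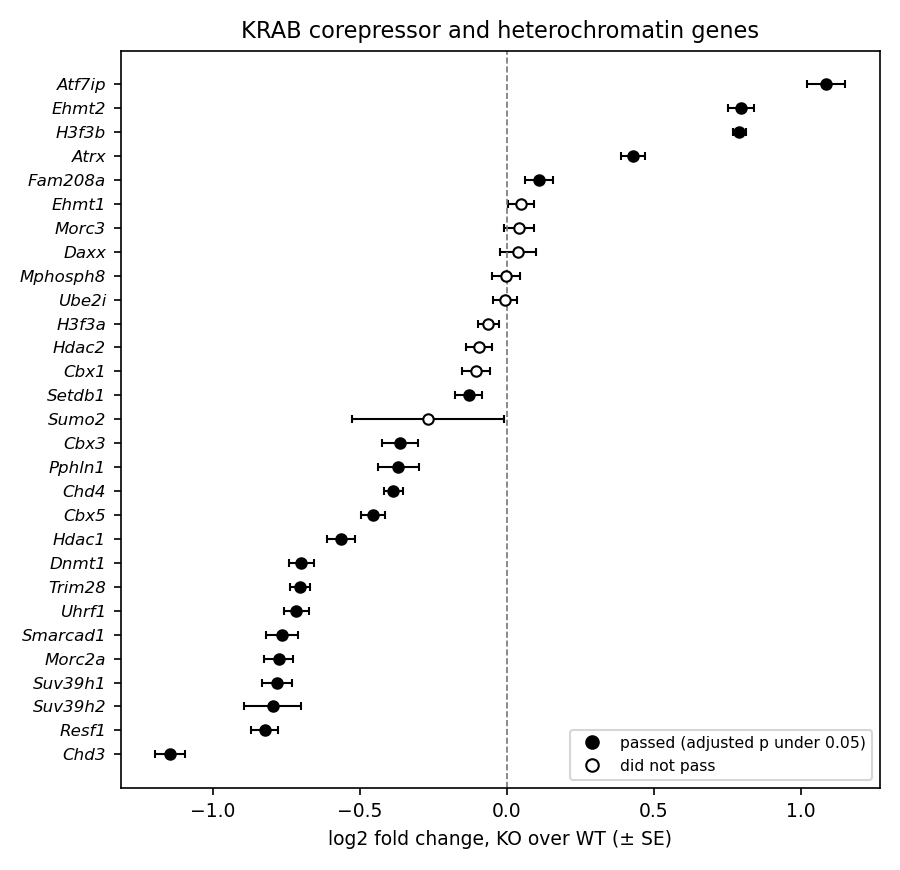
Log2 fold change, KO over WT, with its SE (horizontal axis) of 29 KRAB corepressor and heterochromatin genes (vertical axis, sorted); filled points passed the test at an adjusted p under 0.05. Trim28 lies at -0.70 and Setdb1 at -0.13, with Atf7ip at 1.09 and Chd3 at -1.14 at the ends.

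Related families were set beside the members only as a scale. Of 22 Zbtb genes over the same count minimum, which pair zinc fingers with a BTB domain, 4 were higher and 9 lower, with a median log2 fold change of -0.11. Of 12 Zscan and Zkscan genes over it, which carry a SCAN domain, 5 were higher and 3 lower, with a median of 0.16. Zfp genes under the minimum had 46 higher and 72 lower of 207 tested and a median of -0.15. The difference between these groups and the members was not tested.

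The counting limits some values. Exons of 38 members overlap exons of other genes, and whether the counts separate strands is not stated, so reads in such stretches cannot be told apart. The highest overlap was in Zfp90, at 79.5% of its exon length, and its rise (24.1 ± 3.18 CPM in KO and 16.3 ± 1.39 CPM in WT, log2 fold change 0.57) is uncertain for that reason. Besides Zfp984, more than 20% of the exon sequence of Zfp979, Zfp507, Zfp532, Zfp106 and Zfp90 recurs in other transcripts. Without the 38 overlapping members, 31 of 87 were higher and 39 lower, with a median log2 fold change of -0.041.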

How the data were processed

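RNA sequencing of 6 libraries, 3 KO and 3 WT, was analysed from the counts the authors deposited, whole-number reads per Ensembl gene with no normalisation. Per the submitters' processing notes, the tools named are HISAT2 2.1.0, HTSeq 0.9.1 and DESeq2 1.18.1 and the build is mm10. Neither the annotation release nor the read layout or strand setting is given in the sources used here. The 5 tallies at the end of each deposited count table stayed out of library sizes and tests, and reads under no feature were 42.3 to 43.5% of each library. Symbols, positions, exon overlaps and proteins came from GENCODE M21 on GRCm38, and promoters from RefSeq on GRCm38.p6.

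All genes were fitted together with edgeR 4.0.16 in R 4.3.3: filterByExpr with a minimum count of 10, TMM scaling, quasi-likelihood F tests of KO against WT with no covariate, and Benjamini-Hochberg adjustment over 15816 genes at 0.05. CPM are given after TMM scaling, per library or as mean ± SD (n = 3). The SE of a log2 fold change was derived as its absolute value over the square root of the F statistic. The common biological coefficient of variation was 6.08%. On simulated counts for these genes in the same layout, 64% of 50 simulated 1.5-fold changes were called, as were 88% of 2-fold, 92% of 3-fold and 96% of 4-fold ones, along with 0.0521% of unchanged genes. The changed genes were drawn from all genes in the fit, less counted ones included, and were far fewer than the genes called here. These shares therefore do not describe the members alone.

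The members and lists were chosen with earlier results of these data known. The naming rule took the 12 largest rises and 12 largest falls among called members whose groups do not overlap. It also took up to 3 members per cluster with the smallest adjusted p and the member furthest the other way, members of the role list, the genes beside the count minimum, and from the corepressors 6 with the smallest adjusted p besides Trim28 and Setdb1. The 7 further cluster members and other list members are named by value, after their values were seen. C2H2 fingers were searched as C, 2 to 4 residues, C, 12 residues, H, 3 to 5 residues, H. Alternatives were DESeq2 1.42.0, RLE and upper-quartile scaling, no filter on low counts, the replicate number as a block, each library left out, other count minimums and cluster gaps, and members with overlapping or shared exons left out.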

Additional observations from a re-analysis of the deposited data

How the results depend on the processing

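Of the 101 called members, 92 were called in the same direction in all 11 other fits, 0 were called in the opposite direction in any of them, and 96 to 101 members were called per fit. With each library left out, 40 to 41 members were higher and 55 to 60 lower, and the median log2 fold change ran from -0.13 to -0.090. It was -0.082 under upper-quartile scaling and -0.041 without overlapping members, where 39 were lower, and for members without the KRAB pattern it was -0.17 under upper-quartile scaling, which shifts the median of all genes to 0.046. With a count minimum of 500, 66 of 220 members were higher and 96 lower, and with 2000, 18 of 66 were higher and 34 lower, since the rule then takes more or fewer genes. With a gap of 250 kb, which splits cluster F, its median turned to 0.41, and with 1000 kb, which lengthens cluster I, its median was -0.052. The median of cluster A, which holds 3 members, ran from 0.021 to 0.13 with a library left out. Some members near 0 that did not pass changed sign. Upper-quartile scaling gave 0.031 for Zfp979, 0.020 for Zfp318 and 0.013 for Zfp687, and DESeq2 gave -0.0019 for Zfp397. With a library left out, Zfp26 ran from -0.024 to 0.12, Zfp219 from -0.00040 to 0.097, Zfp397 from -0.048 to 0.063, Zfp979 from -0.062 to 0.034 and Zfp318 from -0.065 to 0.035. The cause of these shifts was not tested. No shared signal of same-numbered libraries was seen: deviations of same-numbered KO and WT libraries correlated at 0.023, 0.0099 and -0.0015, and those of differently numbered ones at -0.024 to 0.015. These values do not show whether the cultures were handled in pairs. With the replicate number as a block, 101 members were called, 42 higher and 59 lower, all of them called without it, with a median of -0.12, and 5 corepressors were higher and 16 lower. Shared exon stretches were searched only in transcripts, and the genome itself was not used here. Leaving out members sharing over 20% left 39 higher and 57 lower of 119. Simulated 1.5-fold changes were recovered in 64% of cases over all genes in the fit, less counted ones included, and the members were not simulated apart.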
